A study of Mus musculus with 2 samples.

Results

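The 10 genes described here are components of the circadian clock: Clock, Per1, Per2, Per3, Cry1, Cry2, Nr1d1, Nr1d2, Dbp and Ciart. They were chosen by name, with earlier results of these data known. All 10 are among the 19059 genes measured in single cells of the hippocampus of aged mice. The mice were C57BL/6 of both sexes, 21 months old when treatment began. The control group was untreated, and the other group received tomatidine, a steroidal alkaloid of the tomato plant, at 0.05% of the chow for 3 months. Flash-frozen hippocampi of 4 mice per group were pooled, fixed and made into 1 library per group, so the spread between mice was not measured and the groups are compared without any test or p-value. All intervals below are 95% intervals of counting error only. Mice were kept on a cycle of 12 h of light and 12 h of darkness, and the time of day at which tissue was taken is not given in the sources used here. A difference between the pools in anything other than the diet cannot be told apart from tomatidine.

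The clock is a feedback loop of transcription that runs in almost every cell. CLOCK, with its partner BMAL1 (gene Arntl), binds E-boxes in the promoters of the Per and Cry genes, and the PER and CRY proteins enter the nucleus and repress CLOCK and BMAL1. In a second loop the nuclear receptors REV-ERB alpha and beta (Nr1d1 and Nr1d2) repress Arntl, Npas2 and Nfil3, while the ROR receptors activate them. Dbp and Ciart are driven by the same E-boxes: DBP activates genes through D-boxes, where NFIL3 represses them, and CIART is a repressor of CLOCK and BMAL1. Because of this wiring, genes activated through E-boxes peak at another time of day than Arntl and Npas2. In the hippocampus the clock is set by the suprachiasmatic nucleus and by signals such as glucocorticoids and neuronal activity, to which Per1 responds directly.

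In the mm10 annotation of GENCODE, Clock at chr5:76209868-76304792 (minus strand) is the only member of the positive limb. The repressors are Per1 at chr11:69095217-69109960 (plus strand), Per2 at chr1:91415982-91459324 (minus strand), Per3 at chr4:151003652-151044665 (minus strand), Cry1 at chr10:85131700-85185064 (minus strand) and Cry2 at chr2:92403646-92434043 (minus strand). The nuclear receptors are Nr1d1 at chr11:98767932-98775333 (minus strand) and Nr1d2 at chr14:18204054-18239127 (minus strand), and the genes downstream are Dbp at chr7:45705088-45710203 (plus strand) and Ciart at chr3:95878503-95882251 (minus strand).

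Promoters of the members were taken from RefSeq on GRCm38.p6, the build named mm10, from 250 bases before to 50 bases after each start. They were found for 9 of the 10 members, with 12 promoters in all; none was found for Per2. All motifs were searched on both strands. The E-box CACGTG was found in 3 of these promoters, those of Ciart, Per1 and Cry1. The shares below are over 32851 promoters of the same length, of which 7.15% held this motif. The D-box TTATGTAA, held by 0.938% of promoters, was found in Per3, where it occurred 2 times. The 4 promoters that hold these motifs are shown because the motifs are the contacts of the loop just described, with E-boxes and D-boxes in capitals.
Ciart, chr3:95882179-95882478, minus strand: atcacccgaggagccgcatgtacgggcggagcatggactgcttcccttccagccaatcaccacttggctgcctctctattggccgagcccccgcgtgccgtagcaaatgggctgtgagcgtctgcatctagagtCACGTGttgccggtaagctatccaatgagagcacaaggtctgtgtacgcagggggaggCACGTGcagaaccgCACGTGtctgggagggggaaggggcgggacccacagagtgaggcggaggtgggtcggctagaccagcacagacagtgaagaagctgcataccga
Per1, chr11:69098699-69098998, plus strand: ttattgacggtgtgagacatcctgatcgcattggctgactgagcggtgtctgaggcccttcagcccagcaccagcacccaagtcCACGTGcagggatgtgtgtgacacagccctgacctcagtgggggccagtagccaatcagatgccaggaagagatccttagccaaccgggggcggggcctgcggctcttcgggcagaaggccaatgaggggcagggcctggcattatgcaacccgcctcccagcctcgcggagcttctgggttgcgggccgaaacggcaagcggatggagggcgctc
Cry1, chr10:85185005-85185304, minus strand: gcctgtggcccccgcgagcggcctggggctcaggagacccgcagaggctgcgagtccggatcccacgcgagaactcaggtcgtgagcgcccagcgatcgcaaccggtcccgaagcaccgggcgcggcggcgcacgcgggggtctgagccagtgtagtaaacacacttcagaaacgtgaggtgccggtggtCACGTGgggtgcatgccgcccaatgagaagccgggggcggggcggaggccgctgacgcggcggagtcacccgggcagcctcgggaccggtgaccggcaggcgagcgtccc
Per3, chr4:151044616-151044915, minus strand: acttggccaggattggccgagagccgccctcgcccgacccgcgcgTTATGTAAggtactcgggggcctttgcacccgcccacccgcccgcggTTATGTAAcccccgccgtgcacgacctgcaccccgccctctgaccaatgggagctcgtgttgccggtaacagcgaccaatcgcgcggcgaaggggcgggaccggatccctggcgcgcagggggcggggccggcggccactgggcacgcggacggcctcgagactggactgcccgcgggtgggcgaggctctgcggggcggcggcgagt
Ciart held 3 E-boxes, whose first bases lie 116, 58 and 44 bases before the start. The E-box of Per1 lay 166 and that of Cry1 60 bases before the start, and the D-boxes of Per3 lay 205 and 158 bases before it. The related motif CACGTT, in 4.685% of all promoters, occurred 1 time each in Cry1, Cry2 and Nr1d1. AGGTCA, bound by REV-ERB and ROR receptors and present in 16.3% of all promoters, occurred 1 time each in Per1, Nr1d2 and the third listed promoter of Clock. The cyclic AMP response element TGACGTCA, in 1.79% of all promoters, was found in no member. A match of letters is a description of these windows and not a measured binding site.

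The libraries held 279525565 UMIs (unique molecular identifiers, each counting a single captured molecule) in the control group and 259059908 in the tomatidine group. Of 31097 deposited cells, 29618 passed the filters, 15115 from the control library and 14503 from the tomatidine library. 292 cell barcodes occurred in both libraries. The cells were clustered without the genes described here, and clusters were named from marker genes, so each class is called by its likeness to a cell type. 13 classes held at least 100 cells in each library, with 84.4% of kept control cells and 83.8% of kept tomatidine cells. Beside dentate granule, CA1 and CA3 neurons they include a class with markers of the thalamus and habenula, which lie next to the hippocampus. Median UMIs per cell ranged from 2836 in microglia-like cells of the tomatidine library to 30216 in deep-layer or subicular neuron-like cells of the control library.

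A level below is in CPM, the UMIs of a gene per 1000000 UMIs of its class and library. Levels are compared between classes for the same gene only, since probes differ between genes. A ratio below is a log2 ratio of CPM, tomatidine over control. Each of the 130 pairs of a gene and a class held at least 55 UMIs over both libraries, above the minimum of 50 set for all genes. In 82 pairs the counting interval of the ratio held 0, in 37 it lay above 0 and in 11 below. Of all genes tested, the share whose interval excluded 0 ran from 14.7% in microglia-like to 46.6% in CA1 pyramidal neuron-like cells. These counts, and those of single genes below, are therefore not read as a result about the members.

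The clock genes did not move as a block. Of the 130 pairs, 18 (13.8%) were past the size threshold, a ratio of at least 0.32 in either direction, while over all genes and classes together 16.1% of pairs were. With the main cell filter this share is near the background, so the number of calls is not read as a result about these genes. Under a stricter cell filter, and among cells within a narrower range of UMIs, the members' share was above that of all genes. Those counts are given below with the dependence on processing. The comparison with the background therefore depends on which cells are kept. The direction was uneven: 17 of the 18 were higher with tomatidine, 13.1% of all pairs against 10.4% of pairs over all genes, and the exception was Per1 in oligodendrocyte-like cells. The calls were also spread unevenly over the genes. Dbp and Per3 held 5 each and Per2 held 3, while Clock, Cry1 and Cry2 held none.

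**Figure D1:**
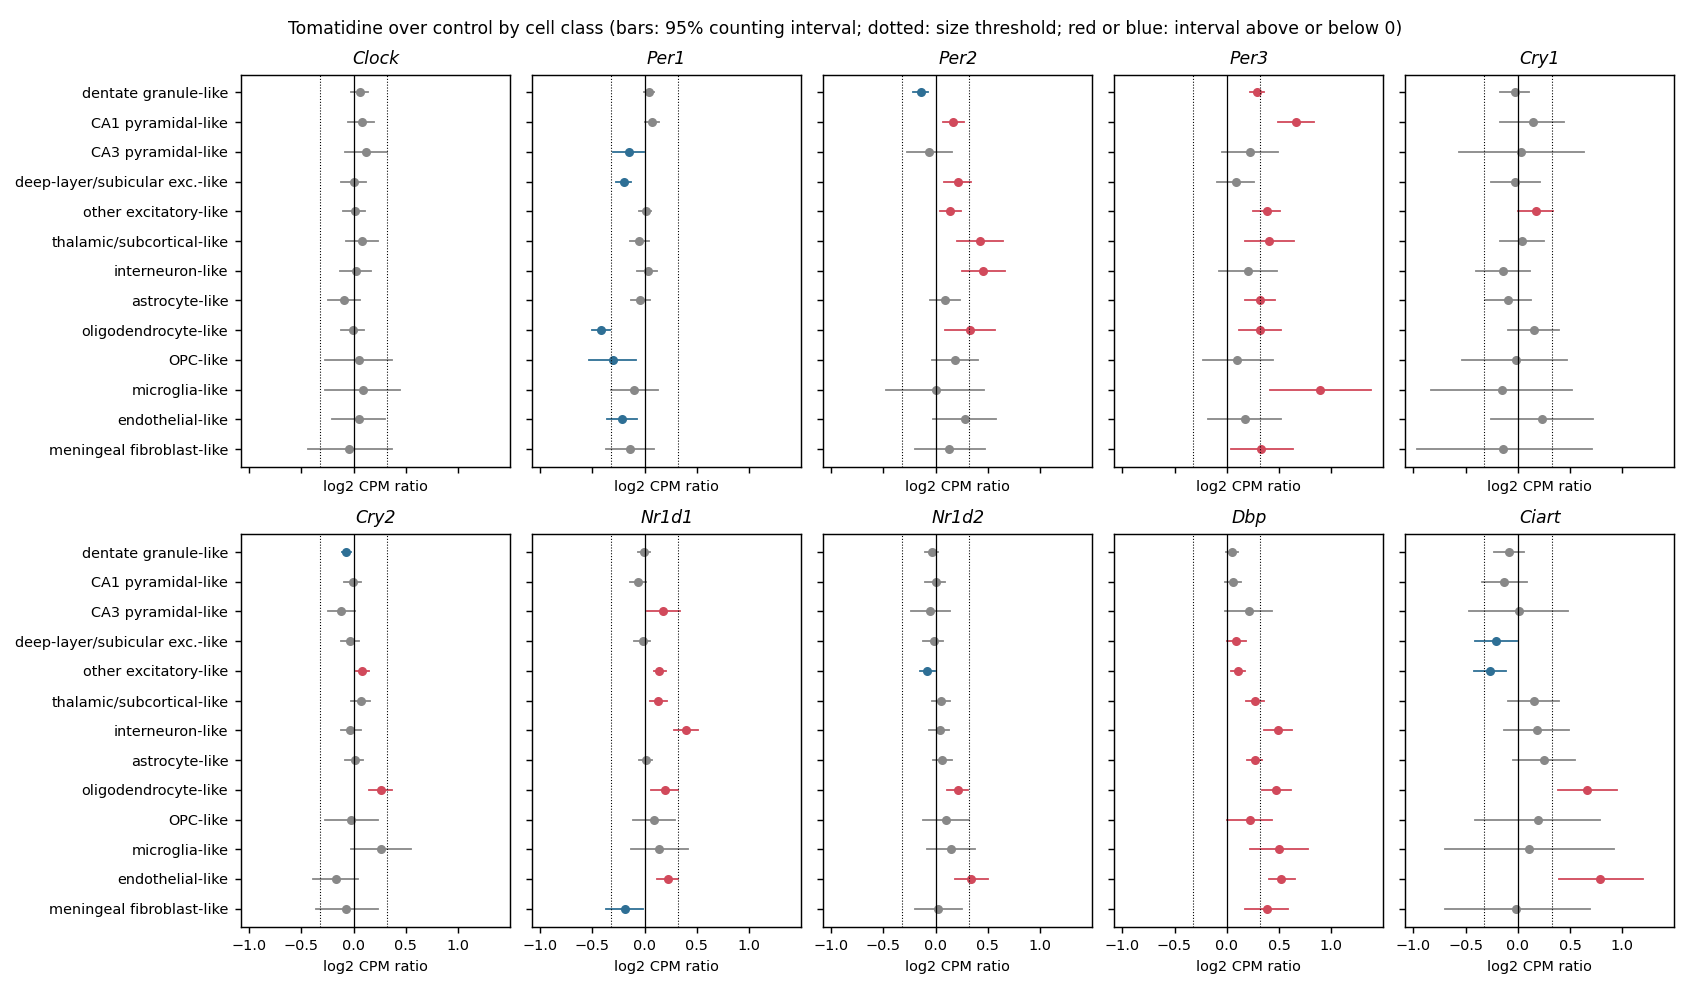
Log2 CPM ratios, tomatidine over control (horizontal axes), of the 10 clock genes in the 13 cell classes (vertical axes); points are ratios, bars 95% counting intervals, dotted lines the size threshold of 0.32 in either direction, red and blue intervals above and below 0. Dbp and Per3 lie right of 0 in all 13 classes, Per1 lies left of 0 in 9, and every interval of Clock holds 0.

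Dbp, the activator of D-box genes, was higher in the tomatidine library in 13 of 13 classes, with an interval above 0 in 10. Per3 was also higher in 13 of 13. Among the 9311 genes tested in every class, 191 (2.05%) were higher in all 13, and 386 (4.15%) had an interval above 0 in at least 8 classes, as Dbp and Per3 both had. The 13 classes come from the same pair of libraries and share whatever differs between them, so they are not replicates.

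The highest Dbp ratios were in endothelial-like, microglia-like, interneuron-like and oligodendrocyte-like cells. In endothelial-like cells its level was 234 CPM in the control and 337 CPM in the tomatidine library, a ratio of 0.52 (0.40 to 0.65). In microglia-like cells the levels were 63.0 and 89.0 CPM, a ratio of 0.50 (0.22 to 0.78). In interneuron-like cells they were 66.9 and 94.0 CPM, a ratio of 0.49 (0.36 to 0.62). The interneuron-like class was the neuronal class in which the Dbp ratio was highest. In oligodendrocyte-like cells Dbp was at 45.1 and 62.6 CPM, a ratio of 0.47 (0.34 to 0.61). In meningeal fibroblast-like cells it was at 180.5 and 234.5 CPM, a ratio of 0.38 (0.17 to 0.59). These 5 classes are those past the threshold, and the first 4 were past it under all 12 alternatives of processing, the fibroblast-like class under 11 of 12.

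The excitatory classes had smaller Dbp ratios. In dentate granule neuron-like cells Dbp was at 111 CPM in the control and 115 CPM in the tomatidine library, a ratio of 0.05 (-0.01 to 0.11). In CA1 pyramidal neuron-like cells the levels were 148 and 154 CPM, a ratio of 0.06 (-0.02 to 0.14), and in CA3 pyramidal neuron-like cells 43.0 and 49.8 CPM, a ratio of 0.21 (-0.02 to 0.43). These 3 intervals hold 0. The interval in dentate granule neuron-like cells does not overlap that of endothelial-like, interneuron-like or oligodendrocyte-like cells, though differences among classes were not tested. The remaining ratios were 0.09 in deep-layer or subicular neuron-like cells, 0.11 in other excitatory neuron-like cells, 0.22 in oligodendrocyte precursor (OPC)-like cells, and 0.27 in both astrocyte-like and thalamic or subcortical neuron-like cells. Dbp was not higher in every class under every alternative: the ratio was -0.13 in other excitatory neuron-like cells when clustered without integration and -0.03 there without doublet removal, -0.05 in deep-layer or subicular neuron-like cells under a gate on markers, and -0.03 in CA1 pyramidal neuron-like cells with TMM scaling. Within the single clusters that make up the classes, Dbp was higher in 23 of 25 and its interval lay above 0 in 14 and below 0 in none.

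Per3, the PER protein least needed for rhythm, had a different distribution over the classes. It differed most in microglia-like cells, from 60 UMIs or 19.2 CPM in the control to 96 UMIs or 35.6 CPM in the tomatidine library, a ratio of 0.89 (0.41 to 1.38). In CA1 pyramidal neuron-like cells it was at 29.0 and 45.8 CPM, a ratio of 0.66 (0.49 to 0.83). Both classes were past the threshold under all 12 alternatives, with ratios of 0.76 to 0.99 in microglia-like and 0.45 to 0.70 in CA1 pyramidal neuron-like cells. The CA1 interval does not overlap that of the dentate granule neuron-like cells, at 71.6 and 87.8 CPM with a ratio of 0.29 (0.22 to 0.36). In these same CA1 cells the interval of Dbp held 0.

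Thalamic or subcortical neuron-like cells held Per3 at 24.8 and 32.8 CPM, a ratio of 0.40 (0.17 to 0.64). Other excitatory neuron-like cells held it at 39.3 and 51.0 CPM, a ratio of 0.38 (0.25 to 0.51), and meningeal fibroblast-like cells at 95.7 and 120 CPM, a ratio of 0.33 (0.04 to 0.63). These were the other classes past the threshold, the last 2 under 9 of 10 and 8 of 12 alternatives. Astrocyte-like and oligodendrocyte-like cells, both at 0.32, lay just under the threshold. The smallest ratios were 0.09 in deep-layer or subicular neuron-like, 0.10 in OPC-like and 0.17 in endothelial-like cells, whose intervals hold 0. In the first of these the ratio was -0.10 under the stricter cell filter and -0.20 among cells of 2000 to 20000 UMIs, and in OPC-like cells it was -0.19 under the gate on markers. In single clusters Per3 was higher in 25 of 25, with the interval above 0 in 11.

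Per1, which responds to neuronal activity and glucocorticoids as well as to the clock, pointed the other way. It was lower in the tomatidine library in 9 of 13 classes, with an interval below 0 in 5 and above 0 in none. In oligodendrocyte-like cells it was at 165 CPM in the control and 124 CPM in the tomatidine library, a ratio of -0.42 (-0.50 to -0.33), past the threshold under all 12 alternatives. OPC-like cells held 149.7 and 121 CPM, a ratio of -0.30 (-0.53 to -0.08). Endothelial-like cells, at 230 and 198 CPM, had a ratio of -0.22 (-0.36 to -0.07). Deep-layer or subicular neuron-like cells, at 239.6 and 208 CPM, had -0.20 (-0.27 to -0.13), and CA3 pyramidal neuron-like cells, at 121 and 108.5 CPM, had -0.15 (-0.30 to -0.01). Dentate granule neuron-like cells, at 150.2 and 154 CPM, did not share this: their ratio was 0.04 (-0.01 to 0.09), which does not overlap the interval of oligodendrocyte-like cells. In 16 of 25 single clusters Per1 was lower, with the interval below 0 in 8 and above 0 in 1. Per1 was lower in 12 of 13 classes with TMM scaling and in 8 of 13 when clustered without integration. Under the stricter cell filter it was past the threshold upward in 2 classes, CA1 pyramidal neuron-like (0.38) and thalamic or subcortical neuron-like cells (0.52), and among cells of 2000 to 20000 UMIs in the same 2 classes (0.36 and 0.37).

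Per2, the other PER with a strong role in rhythm, was higher in 10 classes and lower in 3. In interneuron-like cells it was at 26.7 CPM in the control and 36.6 CPM in the tomatidine library, a ratio of 0.45 (0.25 to 0.66). In thalamic or subcortical neuron-like cells, at 27.6 and 36.8 CPM, the ratio was 0.42 (0.20 to 0.64), and in oligodendrocyte-like cells, at 15.2 and 19.2 CPM, it was 0.33 (0.09 to 0.57). These 3 classes are past the threshold, but in the thalamic or subcortical class the sign turned, to -0.19 under the stricter cell filter and -0.17 among cells of 2000 to 20000 UMIs. The oligodendrocyte-like class stayed past it under 7 of 12 alternatives. The clusters of the thalamic or subcortical class went opposite ways. That led by Gbx2 had a ratio of 0.59 (0.35 to 0.83). That led by Gpr151 had -0.98 (-2.09 to -0.04), from 90 control and 10 tomatidine UMIs. In single clusters Per2 was higher in 16 of 25 and lower in 9, with the interval above 0 in 8 and below 0 in 3. Among the classes, dentate granule neuron-like cells had the lowest ratio, -0.14 (-0.22 to -0.07), at 75.2 and 68.2 CPM. In the same oligodendrocyte-like cells the PER genes thus had ratios of -0.42 for Per1, 0.33 for Per2 and 0.32 for Per3.

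Cry1 and Cry2, the cryptochromes that complete the repressor complex, differed little. All 13 ratios of Cry1 lay between -0.15 and 0.23, and its interval held 0 in 12 classes. The levels of Cry1 in endothelial-like cells, the class with the highest ratio, were 18.3 CPM from 64 UMIs in the control and 21.5 CPM from 83 UMIs in the tomatidine library, with an interval of -0.26 to 0.72. Cry2 ratios lay between -0.17 and 0.26. In oligodendrocyte-like cells Cry2 was at 73.7 and 88.4 CPM, a ratio of 0.26 (0.15 to 0.37), and in dentate granule neuron-like cells, where it was highest, at 215 and 205 CPM, a ratio of -0.07 (-0.11 to -0.02).

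Clock itself, the partner of BMAL1 that is known to vary little over the day, had ratios from -0.09 in astrocyte-like to 0.12 in CA3 pyramidal neuron-like cells. Its interval held 0 in all 13 classes. The tightest was that of dentate granule neuron-like cells, at 61.8 and 64.5 CPM, with an interval of -0.02 to 0.14.

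Nr1d1, which encodes REV-ERB alpha, was higher in 9 classes and lower in 4, with the interval above 0 in 6. It was past the threshold only in interneuron-like cells, at 82.0 CPM in the control and 108 CPM in the tomatidine library, a ratio of 0.40 (0.28 to 0.51) that stayed past it under 8 of 12 alternatives. In endothelial-like cells it was at 414 and 483 CPM, a ratio of 0.22 (0.12 to 0.32). In meningeal fibroblast-like cells it was at 311.5 and 273 CPM, a ratio of -0.19 (-0.37 to -0.02), while Dbp in the same cells was higher. Nr1d2, for REV-ERB beta, was past the threshold in endothelial-like cells, at 156 and 198 CPM with a ratio of 0.34 (0.18 to 0.50), under 8 of 12 alternatives. In oligodendrocyte-like cells it was at 87.8 and 102 CPM, a ratio of 0.21 (0.11 to 0.31), and in 10 classes its interval held 0.

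Ciart had the widest span of ratios of any member, from -0.27 to 0.79, and is also among the least abundant. In endothelial-like cells it was at 22.3 CPM from 78 UMIs in the control and 38.6 CPM from 149 UMIs in the tomatidine library, a ratio of 0.79 (0.39 to 1.20). In oligodendrocyte-like cells it was at 9.63 and 15.2 CPM, a ratio of 0.66 (0.38 to 0.95). Both were past the threshold under all 12 alternatives. In other excitatory neuron-like cells, where the control level was highest, it was at 34.2 and 28.5 CPM, a ratio of -0.27 (-0.42 to -0.11). Deep-layer or subicular neuron-like cells, at 30.2 and 26.2 CPM, had -0.21 (-0.41 to -0.01). The intervals of these excitatory classes and of the endothelial-like and oligodendrocyte-like classes do not overlap, and differences among classes were not tested. Over the alternatives, the Ciart ratio of other excitatory neuron-like cells ranged from -0.33 to 0.34.

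By class, the members' median ratio was highest in oligodendrocyte-like cells at 0.24, beside 0.06 over all genes tested there, and in endothelial-like cells at 0.23, beside 0.02. It was lowest in meningeal fibroblast-like cells at -0.03, beside -0.04. Oligodendrocyte-like cells had 4 members past the threshold, with Per1 lower and Per2, Dbp and Ciart higher, while 15.8% of all genes were past it. Endothelial-like cells had 3, with 20.3% of all genes past it, and interneuron-like cells had 3, with 12.9%. In each of these classes the share of members is above its background, but with counts this small among 10 genes nothing is read from it. Microglia-like cells had 2 members past it beside 18.6% of all genes, meningeal fibroblast-like cells 2 beside 26.6%, and thalamic or subcortical neuron-like cells 2 beside 16.9%, all near the background for 10 genes. CA1 pyramidal neuron-like cells had 1 beside 21%, and other excitatory neuron-like cells 1 beside 10.6%. The classes without any member past the threshold had backgrounds of 8.23% in dentate granule neuron-like, 16% in CA3 pyramidal neuron-like, 12.3% in deep-layer or subicular neuron-like, 12.8% in astrocyte-like and 20.8% in OPC-like cells.

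The thalamic or subcortical class joins 2 clusters whose mix differed between libraries. A cluster led by the habenular gene Gpr151 held 131 control and 34 tomatidine cells, and a cluster led by Gbx2 held 280 and 234. The members' median ratio in this class was 0.11, but 0.56 under the stricter cell filter and -0.02 under the gate on markers. The astrocyte-like class was mixed unequally too. Its clusters led by Agt held 293 and 101 control cells and 548 and 207 tomatidine cells. Dbp ratios there were 0.09 and -0.03, beside 0.29, 0.40 and 0.37 in its other clusters. Among unnamed clusters, that led by Pou4f2 held 178 control and 677 tomatidine cells, and that led by Adora2a 86 and 2. Whether the pools differed in the tissue dissected was not tested.

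Over all kept cells together, Per3 had a ratio of 0.27 (0.23 to 0.32), Dbp 0.20 (0.18 to 0.23) and Per1 -0.12 (-0.14 to -0.10). With each cluster given the same weight in both libraries, its mean share of their UMIs, these became 0.29, 0.18 and -0.09. No member was past the threshold in the whole libraries, where 15.9% of all genes were. Nr1d2, by contrast, was at 0.08 as summed and -0.01 with the same cluster weights in both libraries.

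The levels themselves separated the cell classes more than the libraries did. Nr1d1 was highest in endothelial-like cells, at 414 CPM in the control, and lowest in oligodendrocyte-like cells, at 52.7 CPM, a 7.86-fold range. Dbp shared this top class, at 234 CPM, and was lowest in CA3 pyramidal neuron-like cells, at 43.0 CPM. For both genes the endothelial-like class led in both libraries, and its interval lay apart from that of the class next in order.

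Per2 was highest in OPC-like cells, at 128 CPM in the control and 144.5 CPM in the tomatidine library, and lowest in oligodendrocyte-like cells, at 15.2 and 19.2 CPM, an 8.36-fold range in the control. These are the precursor and the mature cell of a single lineage. Per3 was highest in meningeal fibroblast-like cells, at 95.7 and 120 CPM, followed by dentate granule neuron-like cells, and lowest in interneuron-like cells, at 15.8 and 18.2 CPM. Cry1 was lowest in CA3 pyramidal neuron-like cells, at 7.04 and 7.21 CPM, and highest in thalamic or subcortical neuron-like cells, at 35.5 and 36.6 CPM.

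Cry2 led in dentate granule neuron-like cells and was lowest in microglia-like cells, at 63.3 and 76.0 CPM. Nr1d2 led in thalamic or subcortical neuron-like cells, at 204.5 and 212 CPM, and was lowest in CA3 pyramidal neuron-like cells, at 67.9 and 65.7 CPM. Per1 ranged 2.05-fold in the control, from 119 CPM in microglia-like to 243 CPM in other excitatory neuron-like cells. Clock ranged 1.74-fold, from 45.1 CPM in microglia-like to 78.4 CPM in deep-layer or subicular neuron-like cells, and none of the 12 pairs of neighbours in its order had intervals that lay apart in both libraries. Such neighbours numbered 7 of 12 for Nr1d1, 6 for Dbp, 3 each for Per2 and Per3, 2 each for Cry2 and Nr1d2, 1 each for Per1 and Cry1 and 0 for Ciart.

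**Figure D2:**
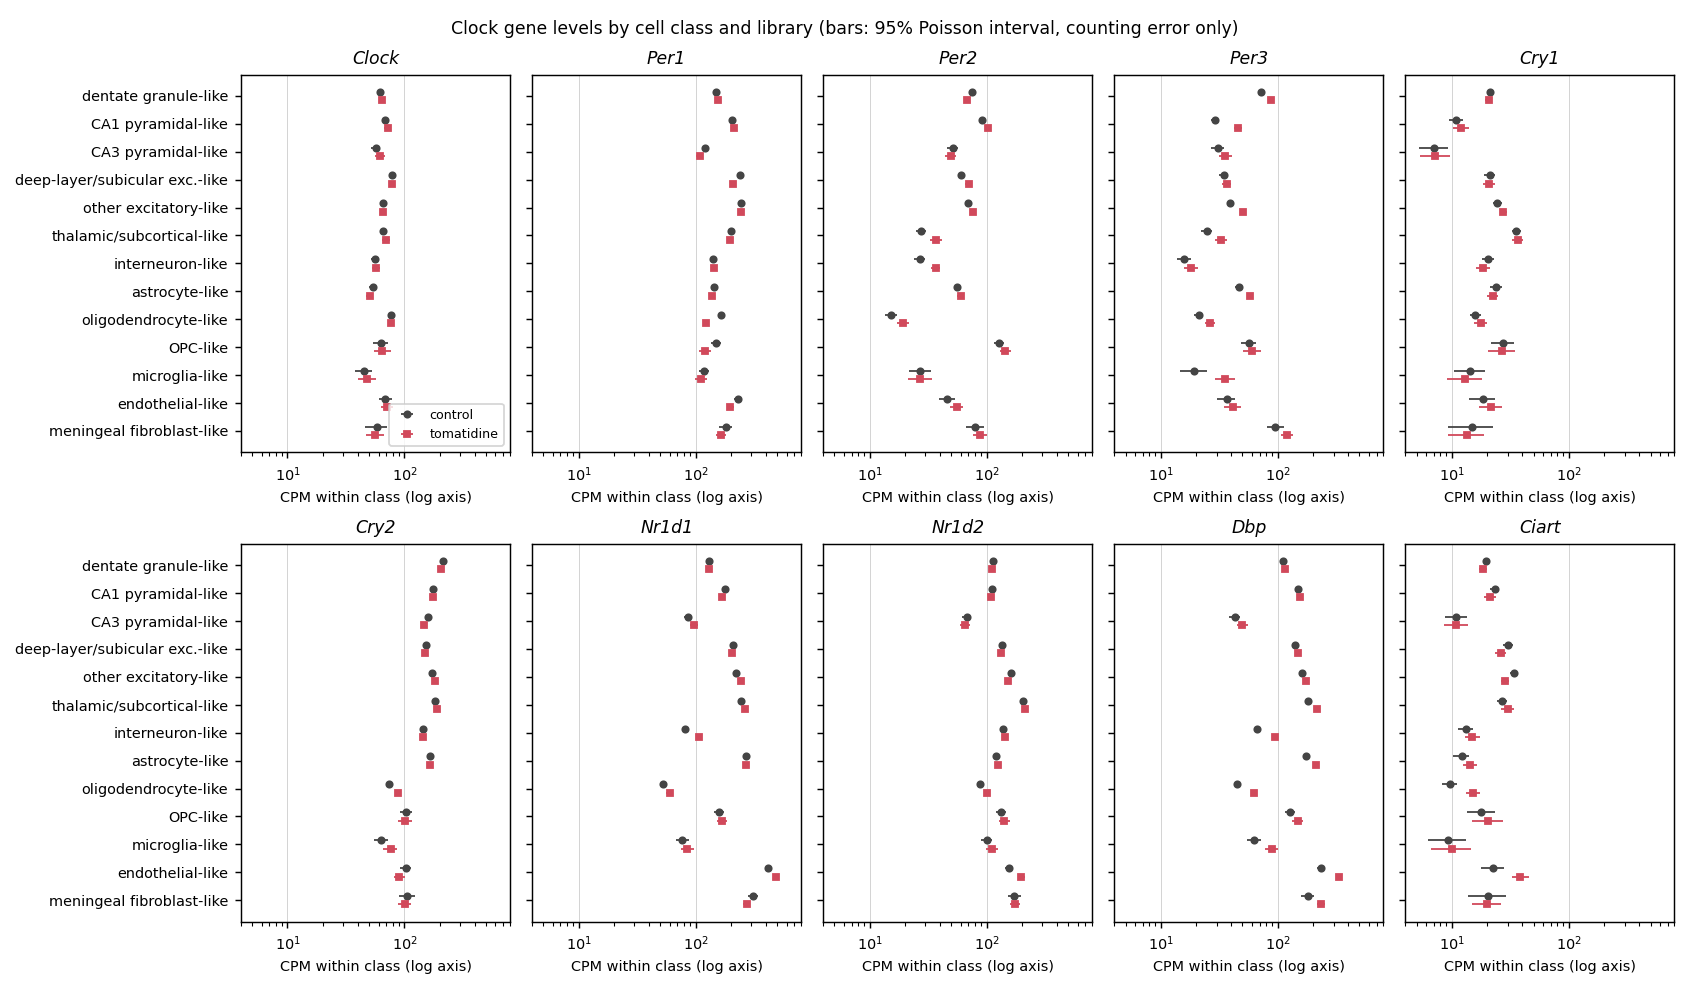
CPM of the 10 clock genes within each of 13 cell classes (vertical axes) in the control (grey circles) and tomatidine (red squares) libraries on log axes, with 95% Poisson intervals of counting error. Nr1d1 and Dbp are highest in endothelial-like cells in both libraries, Per2 in OPC-like and Per3 in meningeal fibroblast-like cells, while Clock varies least between classes.

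CA3 pyramidal neuron-like cells had the lowest control level of all 13 classes for Cry1, Nr1d2 and Dbp, while for Clock they held 56.6 CPM, within the range of the other classes. For Cry2, Per2 and Per3 other neuronal classes were lower. For Per1, OPC-like and oligodendrocyte-like cells were at 149.7 and 165 CPM in the control, so the gap seen for Per2 is not shared by its paralogue.

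Across the 26 values given by 13 classes in 2 libraries, the levels of Nr1d1 and Dbp were most alike, with a Pearson r of 0.95 of log2(CPM + 1). Each was the gene most like the other among 9338 genes with a mean of at least 20 CPM. Dbp was also the gene most like Nr1d2, with an r of 0.82, and Per1 the gene most like Ciart, also with 0.82. For the other members the most similar gene was no clock gene: Map3k12 for Cry2 with 0.93, Plpp5 for Per2 with 0.89, Slc8a3 for Cry1 with 0.84, Nrd1 for Clock with 0.83, Pcdhga12 for Per3 with 0.81 and Ier5l for Per1 with 0.76. Per2 and Per3, with an r of 0.71, were each the member most like the other. Clock had an r of -0.05 with Per3 and 0.07 with Per2. These values describe 26 points that share 2 libraries. The 5 genes outside the set whose ratios over the 13 classes were most like the members' median, among 9301 genes, were Wwc2 with an r of 0.84, Herc3 with 0.83, Blzf1 with 0.82, Gclc with 0.80 and Snrpa with 0.79. These are the highest values picked from that many genes, each over 13 points, so no link to the clock is read from them.

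**Figure D3:**
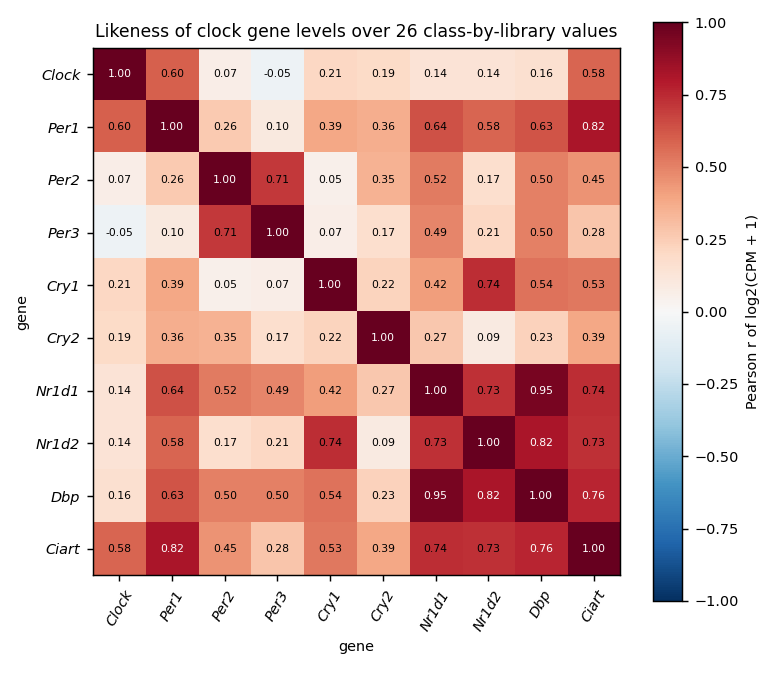
Pearson r of log2(CPM + 1) between the clock genes (both axes) over 26 class-by-library values, with colour from -1 to 1. Nr1d1 and Dbp stand at 0.95, Nr1d2 and Dbp at 0.82 and Per2 and Per3 at 0.71, while Clock and Per3 stand at -0.05.

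Of 28 further genes of the clock pathway considered here, 27 were used. The partners of Dbp in its family of D-box activators are Tef and Hlf. Tef was higher in 13 of 13 classes, as Dbp was, but by less, from 0.04 in dentate granule neuron-like to 0.23 in oligodendrocyte-like cells, and in 12 of 13 under the stricter cell filter and among cells of 2000 to 20000 UMIs. In oligodendrocyte-like cells it was at 175.5 and 206 CPM, with an interval of 0.16 to 0.30. Hlf was higher in 9 of 13 and past the threshold in oligodendrocyte-like cells, at 47.4 and 64.7 CPM, a ratio of 0.45 (0.32 to 0.58). All 3 D-box activators had intervals above 0 in astrocyte-like, oligodendrocyte-like, endothelial-like and meningeal fibroblast-like cells. Of all genes tested, 29.3%, 34.6%, 19.8% and 14.9% had an interval that excluded 0 in these classes, in either direction. In thalamic or subcortical neuron-like cells, where Hlf was highest, it was at 516 and 435 CPM, a ratio of -0.25 (-0.31 to -0.19). Dbp and Tef were higher there. Nfil3, the repressor at the same sites, was lower in 10 of 13 classes, and its lowest ratio was -0.73 (-1.46 to -0.03) in microglia-like cells, from 52 control and 27 tomatidine UMIs.

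The further genes of the positive limb were Arntl, Npas2 and Arntl2. The median ratio of those tested was above 0 in every class but endothelial-like cells, where it was -0.48. Over all kept cells Arntl was at 0.03 (-0.04 to 0.09), Npas2 at 0.06 (0.01 to 0.11) and Arntl2 at 0.34 (0.27 to 0.41). Arntl, the gene of BMAL1, was higher in 6 and lower in 6 of the 12 classes with enough UMIs, and Npas2, which can replace Clock in neurons, was higher in 11 of 13. Arntl2 was higher in 10 of 12. Endothelial-like cells stood at the low end for the first 2: Arntl was at 19.7 CPM from 69 UMIs in the control and 11.9 CPM from 46 UMIs in the tomatidine library, a ratio of -0.73 (-1.30 to -0.17), and Npas2 at 23.2 and 16.6 CPM, a ratio of -0.48 (-0.98 to 0.01). Arntl stayed past the threshold under all 10 alternatives that gave a value and Npas2 under 10 of 12. In the same cells Dbp, Nr1d1, Nr1d2 and Ciart had ratios of 0.52, 0.22, 0.34 and 0.79, and the ROR gene Rorb had -0.77 (-1.14 to -0.40), at 45.8 and 26.9 CPM. In endothelial-like cells, then, Dbp, Nr1d1, Nr1d2 and Ciart were higher, while Per1, Arntl and Rorb were lower. Of other further clock genes there, Hlf was at 0.27, Tef at 0.15, the other ROR gene Rora at 0.00, Arntl2 at -0.01 and Nfil3 at -0.35. Usp2, Bhlhe40 and Wee1, described below, were at -0.49, -0.23 and -0.03.

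Oligodendrocyte-like cells differed from this: Npas2 there was at 7.62 and 11.4 CPM, a ratio of 0.57 (0.25 to 0.90), and Arntl at 9.06 and 9.53 CPM, with an interval of -0.26 to 0.40. Wee1, a cell cycle kinase with E-boxes and a clock output, was at 5.51 CPM from 107 UMIs and 9.80 CPM from 146 UMIs in them, a ratio of 0.83 (0.46 to 1.20). Bhlhe40, a repressor that competes for E-boxes, was at 53.6 and 68.4 CPM, a ratio of 0.35 (0.23 to 0.48), but past the threshold under only 5 of 12 alternatives. Its relative Bhlhe41 had ratios of -0.33 to 0.32 over the classes. In all, 5 of 27 further genes were past the threshold upward in oligodendrocyte-like cells, where 13.1% of all genes were, and none downward. In endothelial-like cells 5 of 25 tested were past it downward, where 9.41% of all genes were, and none upward. With counts this small, nothing is read from these shares.

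Among the enzymes that act on PER and CRY, Fbxl21, a ubiquitin ligase for CRY, was higher in 9 of the 9 classes with enough UMIs, though by 0.00 in CA3 pyramidal neuron-like cells. Its ratio in CA1 pyramidal neuron-like cells was 0.86 (0.45 to 1.27), at 4.80 and 8.69 CPM. In these CA1 cells Arntl2 was also higher, at 22.0 and 35.5 CPM with a ratio of 0.69 (0.50 to 0.88), as were Npas2 with 0.35 and Rora with 0.45. Usp2, a deubiquitinase with a rhythmic messenger, was lower in 10 of 13 classes, and in endothelial-like cells it was at 54.1 and 38.6 CPM, a ratio of -0.49 (-0.81 to -0.17). The casein kinase genes Csnk1d and Csnk1e, which mark PER for destruction, had 1 class past the threshold between them, Csnk1e in meningeal fibroblast-like cells at -0.55. Nono, a partner of PER, was lower in 12 of 13 classes, never past the threshold.

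**Figure D4:**
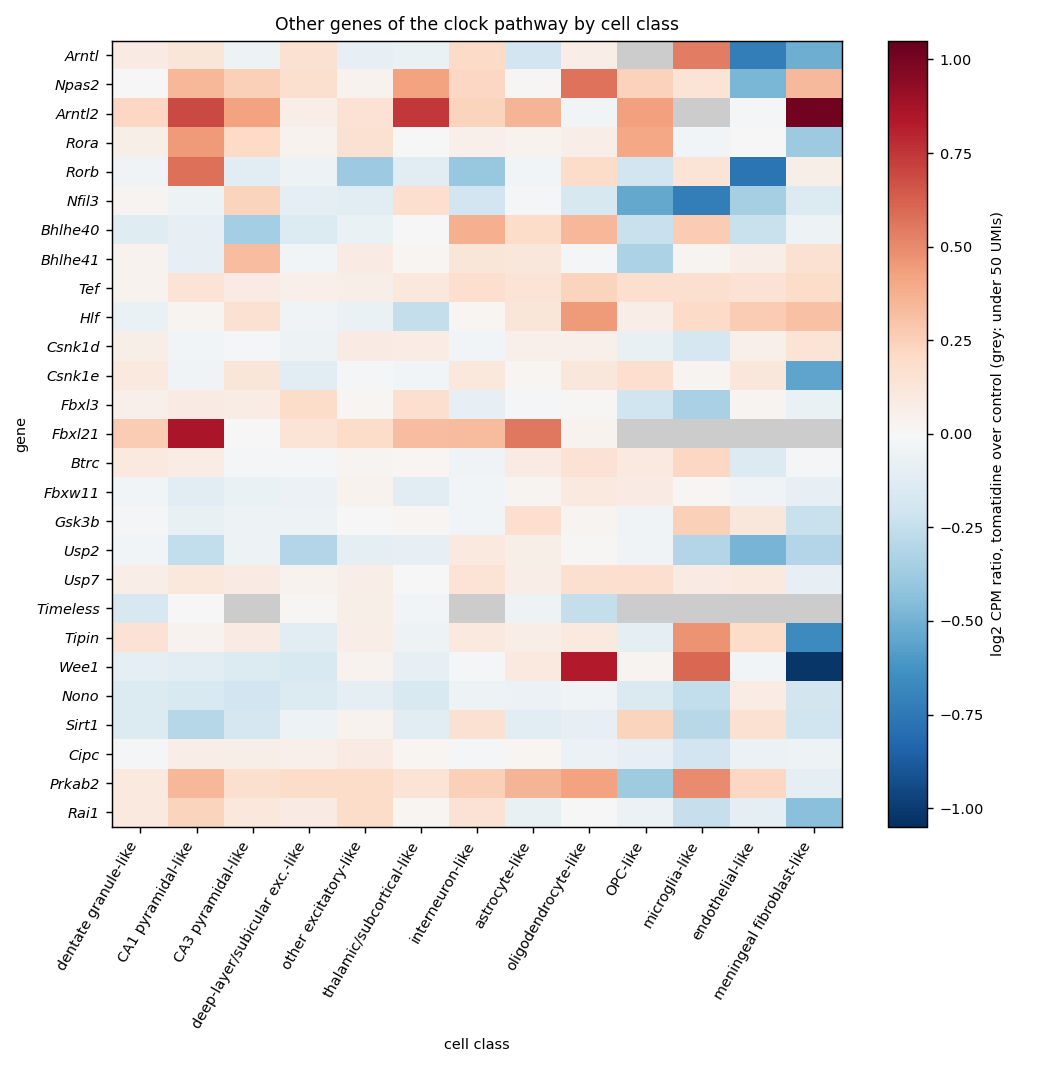
Log2 CPM ratios, tomatidine over control (colour), of 27 further genes of the clock pathway (vertical axis) in 13 cell classes (horizontal axis); grey cells had under 50 UMIs over both libraries. Tef is above 0 in all 13 classes, Nono below 0 in 12, and the endothelial-like column holds -0.73 for Arntl and -0.77 for Rorb.

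Genes that respond to neuronal activity, glucocorticoids or temperature are given beside the members because such signals also reach Per1. Over all kept cells, 13 of 17 immediate early genes were lower in the tomatidine library, with a median ratio of -0.27 and Fos, the best known of them, at -0.31. By class their median ranged from -0.32 in meningeal fibroblast-like to 0.13 in interneuron-like cells, and in oligodendrocyte-like cells, where the Per1 ratio was lowest, it was 0.02. The 12 glucocorticoid-responsive genes had a median of -0.17 over all kept cells and -0.14 in oligodendrocyte-like cells, where Sgk1 was at 1292 CPM in the control and 540 CPM in the tomatidine library, a ratio of -1.26 (-1.29 to -1.22). Of the glucocorticoid-responsive genes, 5 were higher and 7 lower over all kept cells. Sgk1 was lower in 12 of 13 classes, while Mt2 was higher in 12 of 13. The 8 temperature-responsive genes had a median of -0.04 over all kept cells and -0.10 in oligodendrocyte-like cells. Over all genes tested, the median was 0.03 in all kept cells, with 59.0% of genes higher, and 0.06 in oligodendrocyte-like cells. Whether these lists have a part in the clock gene ratios was not tested.

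RNA free in the suspension reaches every class. Ttr, the main transcript of choroid plexus, was at 133 to 2237 CPM in the control classes and 12.2 to 451 CPM in the tomatidine classes, so the libraries differed in it. The part of free RNA in the clock gene levels was not tested.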

How the data were processed

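The deposited matrices hold UMI counts, whole numbers per gene and cell without normalization. The authors dissociated and fixed flash-frozen tissue, built probe-based libraries, aligned reads to mm10 and deposited filtered matrices. The submitters' processing notes name Cell Ranger 8.0.0, while the file headers name version 7.1.0. The cell filter used the first thresholds of the study's methods: at least 500 UMIs, more than 250 genes and less than 20% mitochondrial UMIs. It also asked for a complexity (log10 of genes over log10 of UMIs) above 0.8. The study's quality control section adds an upper limit of 6000 genes and a stricter upper limit on mitochondrial transcripts. Here, under 6000 genes and under 10% mitochondrial UMIs were asked for only in the stricter cell filter, which is an alternative. Scrublet, as in scanpy 1.11.5, called 0 control and 2 tomatidine cells with its own threshold, so the 2% of cells with the highest scores per library were removed instead.

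Seurat 5.3.0 under R 4.3.3 was used for RPCA integration and Louvain clustering at resolution 0.8, on 30 principal components of 2000 variable genes. 79 genes were left out of the clustering: the members, the lists given beside them and Y-linked genes. Of 38 clusters, 10 stayed unnamed. A cluster was named for the class that led alone among its 10 genes of highest fold, showed 3 or more raised markers (2-fold or more, in 10% or more of its cells) and more of them than every other class. The endothelial-like cluster and a microglia-like cluster met the last condition narrowly, each with 12 raised markers of its own and 11 of another class. The cluster led by Gpr151 had 7 and 6. The naming rule was written after clusters were seen and was revised once. The names are rebuilt, so results may differ from the study's for that reason.

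UMIs were summed per class and library. Levels have exact Poisson intervals and ratios exact conditional binomial intervals, which cover counting error only. The named genes were the 10 members, fixed further clock genes, the highest and lowest of the further clock genes by class, and the genes most alike in level or ratio. Members, lists and tests were chosen with earlier results of these data known. The interval method was tested on simulated counts. Alternatives covered filter, doublets, integration, resolution, a gate on markers, TMM scaling (edgeR 4.0.16, for these factors alone), equal weight of cells, cells with a Y-linked UMI, depth, gene minimum and fold. Equal weight of clusters and leaving out shared barcodes were added after seeing the data. Gene models are of GRCm38. Python 3.11.15, numpy 2.4.6, scipy 1.17.1 and pandas 2.3.3 were used. The further clock genes were grouped as positive limb, ROR loop and competing repressors, partners of Dbp, enzymes acting on PER or CRY, and other partners and outputs; Ppp1cc was not used here, and 1 listed gene is not reported here.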

Additional observations from a re-analysis of the deposited data

How the results depend on the processing

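Medians of the 10 clock genes by class moved beyond their counting error under few alternatives. Under the stricter cell filter (also under 6000 genes and under 10% mitochondrial UMIs) the median was 0.23 in CA1 pyramidal neuron-like, 0.22 in other excitatory neuron-like and 0.56 in thalamic or subcortical neuron-like cells, and 37 of 127 pairs were past the threshold of 0.32, against 18 of 130; of all gene and class pairs, 20.6% were past it under that filter and 16.1% without it. Among cells of 2000 to 20000 UMIs the CA1 and thalamic medians were 0.21 and 0.52, with 35 of 126 pairs past it and 20.4% of those of all genes. The median of other excitatory neuron-like cells was -0.02 without integration and -0.02 without doublet removal, and that of the thalamic class was -0.02 under the gate on markers. At 1.5-fold, 4 pairs were left, and 4.53% of those of all genes. The sign of a called ratio turned under the stricter filter for Per2 (thalamic, -0.19), Rora (CA1, -0.01) and Bhlhe40 (CA3, 0.24; interneuron, -0.15), and by depth for Per2 (thalamic, -0.17), Rorb (CA1, -0.54) and Bhlhe40 (CA3, 0.19; interneuron, -0.13). It also turned for Rorb in CA1 without integration (-0.07), at resolution 0.3 (-0.07) and with cells weighted equally (-0.13), for Rorb in other excitatory cells without doublet removal (0.13), and under the gate for Rorb in interneurons (0.63) and Npas2 in the thalamic class (-0.09). Equal weight of cells turned Arntl in microglia (-0.19) and Nfil3 in endothelial-like cells (0.25). The cause was not tested. Of the other single-gene values, 3455 stayed within their counting error and 318 moved beyond it; leaving out shared barcodes moved none of the members. Other excitatory neuron-like cells had no value at resolution 0.3 or under the gate. No paired analysis was possible because each group is 1 library. The libraries' 4 pooled mice cannot be separated, and the counts limit Cry1 and Ciart most.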

Other observations

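Choroid plexus-like cells, a secretory epithelium with a strong clock, numbered 346 in the control and 31 in the tomatidine library and were not compared. In the control they held Dbp at 102 CPM (90.0 to 114), Nr1d1 at 79.4 CPM (69.2 to 90.7) and Per2 at 56.5 CPM (47.9 to 66.1). Per1, at 114 CPM (102 to 127), Cry2, at 61.6 CPM (52.6 to 71.6), and Ciart, at 8.38 CPM (5.31 to 12.6), were each below the control level in all 13 classes described. Only 49 Dbp UMIs and 4 Ciart UMIs came from the tomatidine cells.

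In the clusters that took no name, the pattern of Dbp and Per3 was less even. Dbp was higher in 6 and lower in 3 of 9 such clusters with at least 50 UMIs, with the interval above 0 in 4. Per3 was higher in 3 and lower in 3 of 6, with 0 intervals above 0. Per1 was lower in 6 of 10, with the interval below 0 in 4.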
